A study of Equus caballus with 8 samples.

Results

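Small leucine-rich proteoglycans were followed as the genes LUM, DCN, BGN, ASPN, FMOD, PRELP, OGN, OMD, PODN and ECM2, chosen by gene symbol. All 10 had a row among the 15266 named genes of the expression table, and all 10 were among the 14907 genes tested. Equine BM-MSCs (mesenchymal stem cells of sternal bone marrow, grown out as stromal cells that adhere to plastic) came from 4 Thoroughbred or Thoroughbred-cross horses labelled D, J, L and W. The marrow of each horse was divided, and each horse gave 1 untreated library (no TGF-β2) and 1 library from cells grown with 1 ng/ml recombinant human TGF-β2. By the labels, exposure ran from isolation up to passage 3 or 4, whereas the methods give it as 3 passages before sequencing. The labels give no age for these horses. The methods give only an age range for all horses of the study, with mares and geldings in equal numbers in each experiment. Both groups grew in low glucose medium with fetal bovine serum, antibiotics and, by the methods though not the labels, recombinant human basic fibroblast growth factor. No sorting or cloning is described, and each library is 1 culture of 1 horse.

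Small leucine-rich proteoglycans are secreted matrix proteins whose core is a curved stack of leucine-rich repeats. The core binds collagen fibrils and sets their diameter and spacing, and in many members it carries chondroitin, dermatan or keratan sulphate chains. Several members also bind growth factors: decorin and biglycan hold TGF-β in the matrix. In tendon, decorin, biglycan, fibromodulin and lumican are the best known members, and loss of them disturbs fibril growth. Class I holds DCN, BGN and ASPN, to which ECM2 is related in sequence, class II holds LUM, FMOD, PRELP and OMD, OGN belongs to class III, and PODN to a smaller, later class. Many of these genes are neighbours. In the RefSeq annotation of the horse assembly TB-T2T, LUM lies next to DCN, FMOD next to PRELP, and ECM2, ASPN, OMD and OGN follow each other with no other protein-coding gene between them.

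Between 40044240 and 57228675 reads fell on named genes in the untreated libraries and between 39184554 and 46634539 in the treated ones. Levels are normalized counts, the reads of a gene divided by a size factor for its library. They are not divided by transcript length, so levels of different genes are not ranked here. All 5 mesenchymal markers (ENG, THY1, NT5E, CD44 and ITGB1) were expressed, with summed normalized counts of 138766 to 309522 in untreated and 150975 to 250162 in treated libraries, and 1 of them, THY1, was called lower (log2 fold change -2.21). Of the haematopoietic markers, 5 of 8 were listed, and they summed to 225 to 345 untreated and 175 to 281 treated, with none of the 4 tested called. Of the endothelial markers, 2 of 6 were listed, CDH5 and KDR, summing to 7.10 to 26.3 untreated and 30.0 to 55.7 treated, with KDR called higher except when horse D was left out. Of the tenocyte markers 3 of 4 were listed, and SCX and MKX were called higher and EGR1 lower (log2 fold changes 2.40, 2.96 and -2.44), EGR1 not when horse L or W was left out.

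One library stood apart from its group. Over all tested genes, the untreated library of horse J differed from the mean of the other 3 untreated libraries by a root mean square of 0.997 on the log2 scale, against 0.634 to 0.728 for the other untreated libraries. All 10 proteoglycan genes were lowest in that library, where 35.8% of all tested genes were, and none was highest there, where 35.0% of all genes were. The libraries of horses D, L and W were lowest for 20.1%, 22.7% and 21.3% of all genes and for none of the 10. In the untreated library of horse J the median difference of the 10 genes from the mean of the other untreated libraries was -2.38 on the log2 scale. In the treated group the library of horse J was lowest for 3 of the 10 genes and highest for 2. The leukocyte marker PTPRC was at 110 normalized counts in the untreated library of horse J and at 1.74 to 41.5 in the other untreated libraries, a difference whose part in the proteoglycan levels was not tested. Results are therefore given with all 4 horses and without horse J.

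With TGF-β2, BGN, ASPN and PODN rose and LUM and PRELP fell, while DCN, FMOD, OGN, OMD and ECM2 did not pass the test. Genes were compared with limma on log2(normalized count + 1) in a model that blocks on the horse, so that each treated culture was set against the untreated culture of the same horse. A gene was called at a Benjamini-Hochberg adjusted p under 0.05 over all tested genes and an absolute log2 fold change over 1. Of all tested genes 14.1% were called, 6.83% higher and 7.31% lower, against 5 of the 10 proteoglycan genes, 3 higher and 2 lower. The median log2 fold change was 0.40 over the 10 genes and 0.01 over all tested genes. Without horse J, the median of the 10 was -0.17, and 3 were called higher and 4 lower, where 7.67% and 8.71% of all genes were. The 4 were LUM, PRELP, DCN and OMD. Without a term for the horse, 1 gene was called higher, BGN, and 2 lower, LUM and PRELP, against 5.59% and 5.87% of all genes (11.5% in all). Leaving out D gave 2 higher and 0 lower (3.94% and 3.92% of all genes), leaving out L gave 2 and 1 (6.28% and 6.3%) and leaving out W gave 2 and 0 (3.67% and 3.58%). Scaling by total reads gave 3 and 2, against 4.68% and 12.3% of all genes. Because these are bulk cultures, fewer cells that express a gene and less RNA per cell cannot be told apart.

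**Figure D1:**
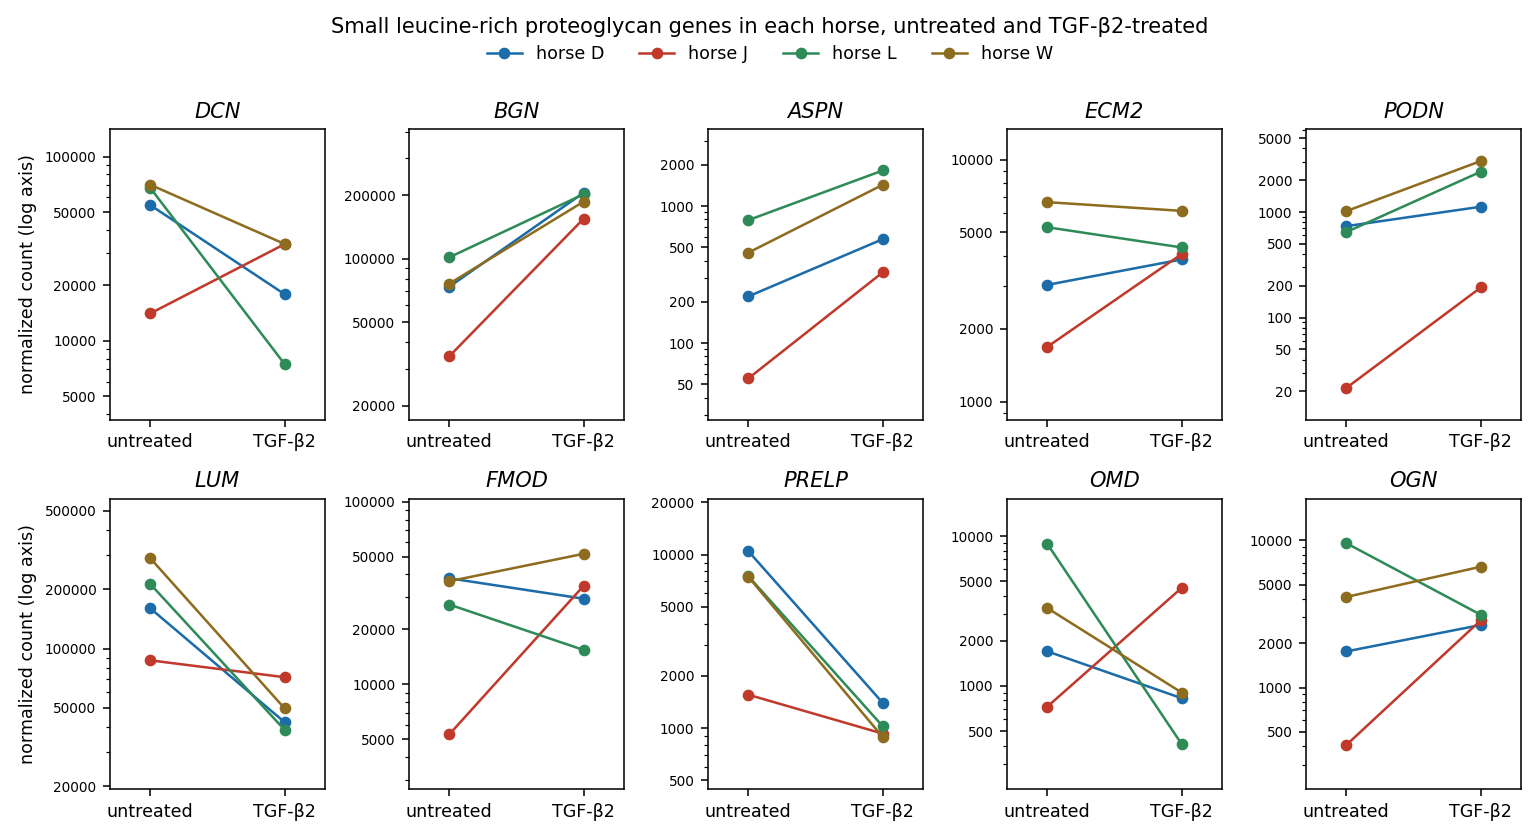
Normalized counts (log axis, a separate scale for each gene) of the 10 proteoglycan genes in untreated and TGF-β2-treated cultures, 1 line per horse. LUM and PRELP slope down and BGN, ASPN and PODN slope up in all 4 horses, and the untreated point of horse J (red) is the lowest in every panel.

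**Figure D2:**
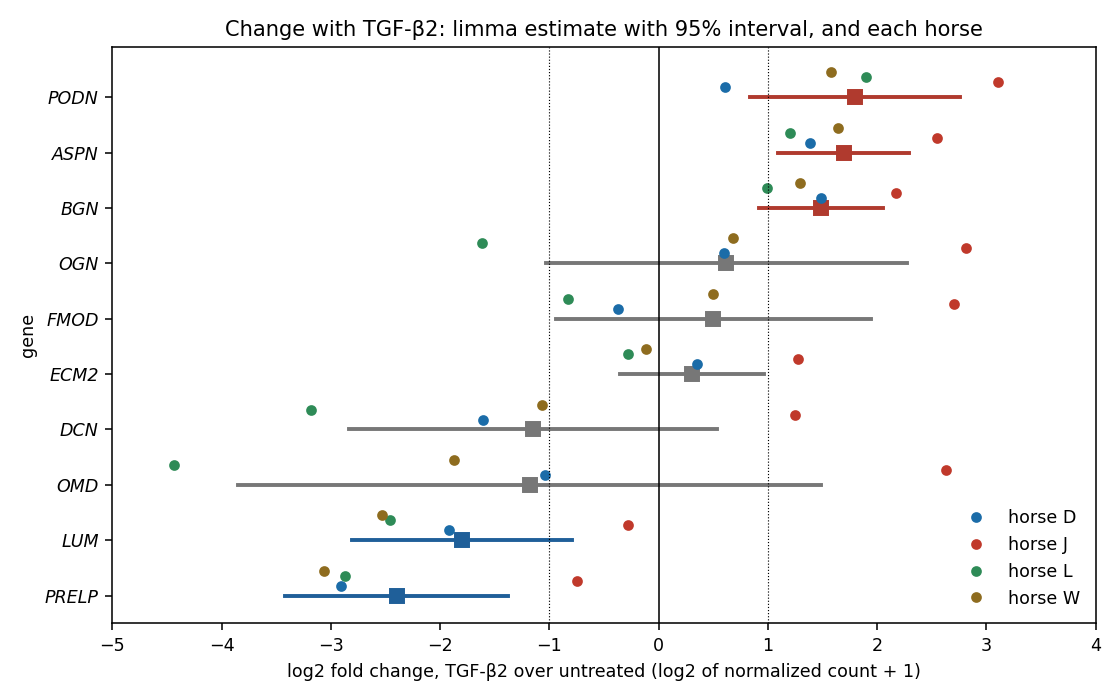
Log2 fold change of each gene, TGF-β2 over untreated, as the limma estimate (square) with its 95% interval (bar) and as the change in each horse (points), red called higher, blue called lower and grey not called. The interval of each called gene lies to 1 side of 0, as the call itself requires, and horse J is the rightmost point for all 10 genes.

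In each of the 4 horses BGN, ASPN and PODN went up, as 26.3% of all tested genes did, and LUM and PRELP went down, as 25.6% did. These 5 of 10 genes compare with 51.9% of all tested genes that changed 1 way in every horse. Horse J had the highest log2 change of the 4 horses for all 10 genes, against 32.7% of all tested genes. This is not separate from the low untreated levels of horse J, which enter its change. For DCN and OMD horse J went up while the other 3 horses went down, a pattern that 16.5% of all tested genes showed. For OGN horse L went down against the others, as 7.52% of all genes did, and no member set horse D or W against the rest, as 4.55% and 5.33% of all genes did.

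Among the class I genes, BGN, which encodes biglycan, a proteoglycan that usually carries 2 chains, held 73503, 34369, 101455 and 76052 normalized counts in the untreated libraries of horses D, J, L and W. The treated libraries held 205735, 154862, 202329 and 186587. Every treated library was thus above every untreated one, which was true of 13.9% of all tested genes. BGN, LUM and PRELP were the 3 members whose groups did not overlap, against 27.8% of all tested genes in either direction. The mean rose from 71345 ± 27693 (SD, n = 4) to 187378 ± 23226. The log2 fold change was 1.49 (standard error 0.23, 95% interval 0.92 to 2.05), a fold of 2.80, and limma's adjusted p was 0.00886. The rise was smallest in horse L, 1.99-fold, and largest in horse J, 4.51-fold. Leaving out horse J gave 1.26 (adjusted p = 0.00853 from limma), and leaving out horse D gave an adjusted p of 0.0525.

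DCN encodes decorin, the single-chain relative of biglycan and the classical binder of TGF-β and of type I collagen fibrils. It held 54553, 14084, 67635 and 70335 normalized counts untreated in horses D, J, L and W, and 17900, 33494, 7468 and 33544 treated. Horses D, L and W were lower with treatment, by 3.05-fold, 9.06-fold and 2.10-fold, and horse J was 2.38-fold higher. The groups overlapped because of horse J, whose untreated value lay among the treated ones. With all horses the log2 fold change was -1.15 (standard error 0.68, 95% interval -2.83 to 0.53), and the adjusted p was 0.243. Without horse J, DCN was called lower, by -1.95 on the log2 scale at an adjusted p of 0.0190. Without horse L the estimate was -0.48, with an adjusted p of 0.599.

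ASPN, encoding asporin, a class I protein without the usual chain that binds collagen and TGF-β, held 219, 55.2, 791 and 458 normalized counts untreated in horses D, J, L and W. With TGF-β2 it held 574, 329, 1821 and 1432. The horses kept the same order in both groups, J lowest, then D, W and L, and the spread between horses was wide enough that the groups overlapped. Within horses the rise was 2.62-fold in D, 5.95-fold in J, 2.30-fold in L and 3.13-fold in W. The paired estimate was 1.70 on the log2 scale (standard error 0.24, 95% interval 1.10 to 2.30), and the adjusted p was 0.00718. Without a term for the horse the standard error was 0.86 and the adjusted p 0.190, so that ASPN was called only in the paired comparison. It remained called with any single horse left out, with adjusted p from 0.00218 to 0.0489.

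ECM2, which encodes a leucine-rich matrix protein related to decorin, held 3038, 1686, 5255 and 6671 normalized counts untreated and 3870, 4075, 4335 and 6140 treated. It was higher in horses D and J and lower in L and W. The log2 fold change of 0.31 had a 95% interval of -0.35 to 0.96 and an adjusted p of 0.415. Without horse J the estimate was -0.02.

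PODN encodes podocan, a leucine-rich collagen binder first studied in kidney and vessel wall. It held 734, 21.5, 645 and 1020 normalized counts untreated in horses D, J, L and W, and 1122, 193, 2408 and 3040 treated. Horse J was lowest by far in both groups, with 32 reads untreated and 180 treated, and its treated value lay below the untreated values of the other 3 horses. Within horses the rise was 1.53-fold in D, 8.94-fold in J, 3.73-fold in L and 2.98-fold in W. The log2 fold change was 1.80 (standard error 0.39, 95% interval 0.83 to 2.76), with an adjusted p of 0.0220. Without horse J it was 1.36, with an adjusted p of 0.0142. Without a term for the horse the adjusted p was 0.371, and with horse L or W left out it was 0.0691 or 0.0897.

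In class II, LUM, which encodes lumican, a keratan sulphate proteoglycan that keeps fibrils thin and evenly spaced in cornea and tendon, held 160128, 87137, 212755 and 287637 normalized counts untreated and 42278, 71550, 38623 and 49649 treated in horses D, J, L and W. All treated libraries lay below all untreated ones, as 13.9% of tested genes did. The decrease was 3.79-fold, 5.51-fold and 5.79-fold in D, L and W, and 1.22-fold in J, which had the lowest untreated and the highest treated value. LUM went from a mean of 186915 ± 84628 (SD, n = 4) to 50525 ± 14748, and the paired estimate was -1.80 on the log2 scale (standard error 0.40, 95% interval -2.80 to -0.80, adjusted p = 0.0246 from limma). Leaving out horse J gave -2.31 at an adjusted p of 0.00195. With D, L or W left out, the adjusted p was 0.102, 0.0779 or 0.106. On recovered reads DESeq2 gave an adjusted p of 0.0531 and edgeR 0.0287.

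PRELP encodes prolargin, a class II protein with a basic end that binds heparan sulphate and so joins basement membranes to collagen. It had the largest change of the 10 genes. The untreated libraries held 10472, 1559, 7517 and 7448 normalized counts in horses D, J, L and W, and the treated ones 1398, 930, 1025 and 889. The treated levels lay close together and below every untreated one. Horses D, L and W were lower by 7.49-fold, 7.33-fold and 8.38-fold and horse J by 1.68-fold. The mean fell from 6749 ± 3736 (SD, n = 4) to 1061 ± 232, with a log2 fold change of -2.40 (standard error 0.41, 95% interval -3.42 to -1.38) and an adjusted p of 0.0116. Without horse J the log2 fold change was -2.95 and the adjusted p 3.30e-04. Without D or W the adjusted p was 0.0618 or 0.0681.

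FMOD, encoding fibromodulin, which shares a collagen binding site with lumican and acts in tendon fibril maturation, held 38125, 5317, 27374 and 36738 normalized counts untreated. Treated, it held 29464, 34717, 15423 and 51944 in the same order of horses. Horses D and L were lower, J 6.53-fold higher and W 1.41-fold higher. The log2 fold change of 0.50 (95% interval -0.94 to 1.95, adjusted p = 0.543 from limma) did not exceed the spread between horses, and without horse J it was -0.23 with an adjusted p of 0.515.

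OMD encodes osteomodulin, a class II member found mainly in bone and tooth matrix. It held 1701, 727, 8872 and 3310 normalized counts untreated and 828, 4520, 408 and 902 treated in horses D, J, L and W. The value of horse L dropped 21.7-fold while that of J was 6.22-fold higher, the widest disagreement between horses of the 10 genes (SD of the log2 change 2.93). The log2 fold change was -1.18 (standard error 1.07, 95% interval -3.85 to 1.49) with an adjusted p of 0.438. Without horse J, OMD was called lower, by -2.45 on the log2 scale with an adjusted p of 0.0356. Without horse L it was -0.09, with an adjusted p of 0.951. Of 6 osteoblast and chondrocyte markers, IBSP, SP7 and ACAN were listed, their sum ran from 1075 to 5170 untreated and from 262 to 12868 treated, and none was called with all horses, while SP7 was called lower without horse J. SP7, the osteoblast transcription factor, went from 1029 to 3705 in horse J and from 3310 to 301 in horse L. IBSP, bone sialoprotein, went from 35.7 to 9128 in J and from 1662 to 23.0 in L. In D and W, where OMD was lower, SP7 was lower too (log2 changes -1.38 and -2.29), whereas IBSP was at -3.10 and 0.07. ACAN, the cartilage proteoglycan aggrecan, went from 198 to 2.30 in L and was higher in D, J and W, by 1.36, 1.71 and 1.14 on the log2 scale, at no more than 41.7 normalized counts in these horses. The part of these markers in the OMD values was not tested.

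OGN encodes osteoglycin or mimecan, a small class III member of bone, cornea and tendon. It held 1759, 407, 9559 and 4124 normalized counts untreated and 2660, 2865, 3120 and 6617 treated. Horses D, J and W were higher, by 1.51-fold, 7.03-fold and 1.60-fold, and horse L was 3.06-fold lower. The treated libraries of D, J and L lay between 2660 and 3120, although the untreated levels of the same horses spanned 407 to 9559. The log2 fold change of 0.62 (95% interval -1.03 to 2.27) had an adjusted p of 0.512, and without horse J it was -0.11.

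The spread between horses was narrower with TGF-β2 for each of the 10 genes. The highest untreated library held 2.95 to 47.3 times the lowest, with a median of 6.94 over the genes, and the highest treated library 1.33 to 15.8 times the lowest, with a median of 2.93. Of all tested genes 65.8% had a narrower range with treatment. Without horse J, the range was narrower for 6 of the 10 genes, against 53.7% of all tested genes. The medians were then 1.69 untreated and 2.35 treated. With horse J left out, DCN, FMOD, PRELP and PODN had the wider range in treated cells.

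Summed over the 10 genes, 145363, 344235, 441859 and 493793 normalized counts were found in the untreated libraries of horses J, D, L and W, and 276961 to 340745 in the treated ones. They took 0.377% to 1.22% of all reads untreated and 0.517% to 0.678% treated. Within this sum the reads of the genes were shared out differently. LUM made up 46.5% to 59.9% untreated and 13.8% to 23.3% treated, and BGN 15.4% to 23.6% untreated and 50.4% to 73.1% treated. Neither range overlapped with the other. The share of PRELP went from 1.07% to 3.04% down to 0.261% to 0.457%, also without overlap. DCN held 9.69% to 15.8% untreated and 2.70% to 10.9% treated, and FMOD 3.66% to 11.1% and 5.57% to 15.2%. These are shares of reads and not of molecules, and the libraries' size factors cancel in them.

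**Figure D3:**
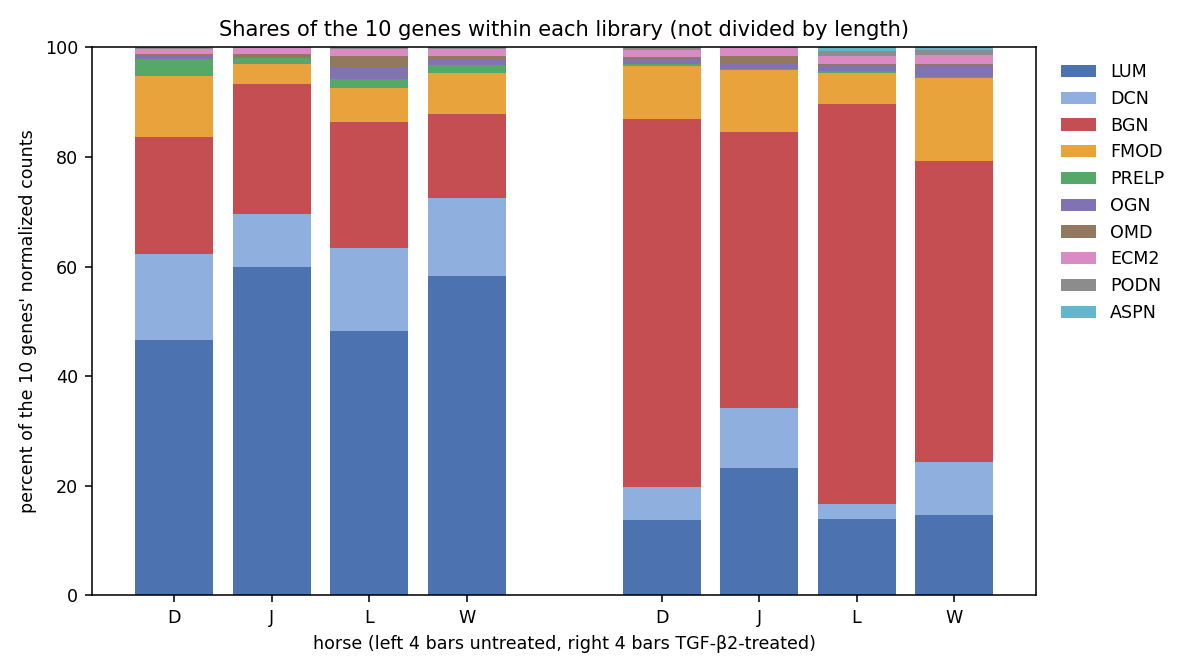
Stacked bars give the share of each gene, in percent of the normalized counts of the 10 genes, in each library (horses D, J, L and W, untreated on the left, TGF-β2-treated on the right). The LUM block covers 46.5% to 59.9% of the untreated bars and 13.8% to 23.3% of the treated ones, and the BGN block 15.4% to 23.6% and 50.4% to 73.1%.

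Ratios between related genes within a library, in which the size factor also cancels, were compared for 5 pairs. With 4 horses an exact two-sided sign-flip permutation test cannot give a p under 0.125, so none of these ratios can pass a threshold of 0.05. BGN over DCN was higher with treatment in 4 of 4 horses, from 1.35 to 11.5 in D, from 2.44 to 4.62 in J and from 1.08 to 5.56 in W. Horse L had the highest treated ratio, 27.1, and the largest log2 change, 4.17. The mean log2 change was 2.64 ± 1.36 (SD, n = 4; exact p = 0.125, adjusted over the 5 ratios 0.156). ASPN over DCN was also higher in 4 of 4 horses, by a mean of 2.85 ± 1.25 on the log2 scale, with the same exact p of 0.125. These ratios were higher in horse J too, although DCN itself went up there.

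FMOD over LUM went from 0.238 to 0.697 in horse D, from 0.0610 to 0.485 in J, from 0.129 to 0.399 in L and from 0.128 to 1.05 in W. Every treated ratio exceeded every untreated one, with a mean log2 change of 2.30 ± 0.82 (SD, n = 4; exact p = 0.125). PRELP over LUM was lower in 4 of 4 horses, by 0.41 to 0.98 on the log2 scale, a mean of -0.60 ± 0.26 (exact p = 0.125). The decrease of PRELP was thus larger than that of LUM in each horse. OGN over ASPN, which are close neighbours in the genome, was lower in 3 of 4 horses, with a mean log2 change of -1.08 ± 1.27 (exact p = 0.250). Without horse L the mean was -0.51.

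**Figure D4:**
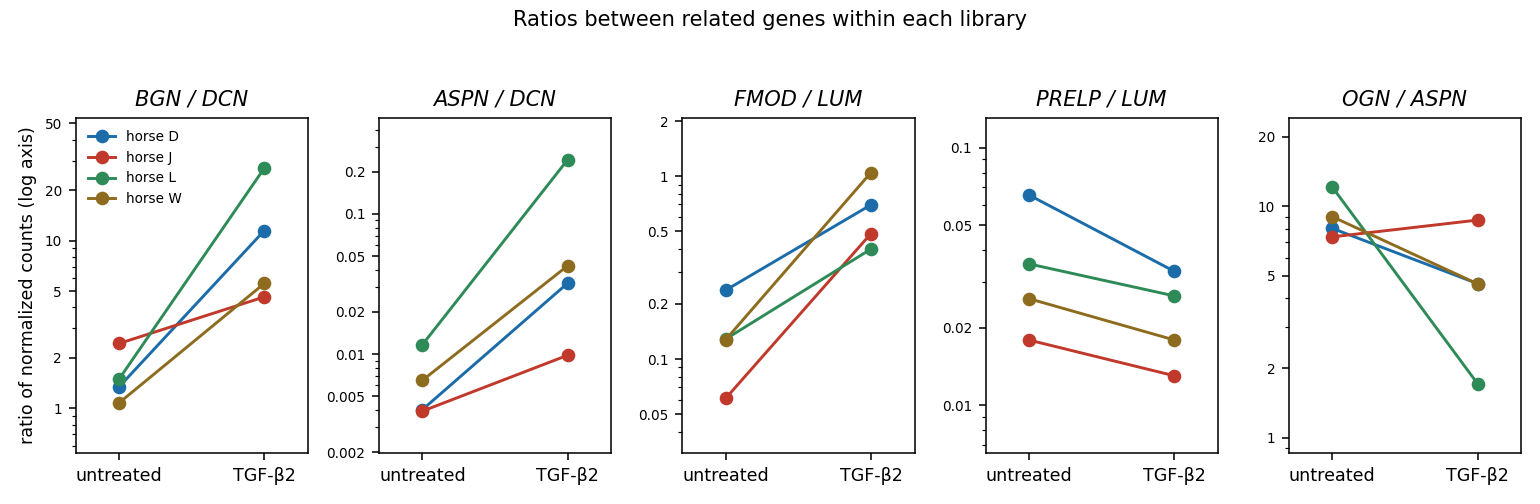
Ratio of the normalized counts of 2 related genes within each library (log axis), untreated and TGF-β2-treated, 1 line per horse. BGN / DCN, ASPN / DCN and FMOD / LUM slope up and PRELP / LUM slopes down in all 4 horses, and OGN / ASPN slopes up in horse J and down in the other 3.

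Among neighbouring genes, LUM was lower in all 4 horses and its neighbour DCN in 3. PRELP fell while its neighbour FMOD had a log2 fold change of 0.50, with 95% intervals of -3.42 to -1.38 and -0.94 to 1.95. Both genes were measured in the same libraries, and the difference between their changes was not tested. Of the 4 genes that lie in a row, ASPN was called higher, and OGN, ECM2 and OMD had log2 fold changes of 0.62, 0.31 and -1.18. Across the 8 libraries, the Pearson correlation of log2 levels was 0.92 between ECM2 and OGN, 0.91 between PODN and ASPN, 0.90 between PRELP and LUM, and 0.82 between DCN and LUM. It was lowest between BGN and LUM, -0.61. The 8 libraries come from 4 horses and 2 treatments and share these differences, so the values are a description only.

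The tested genes whose log2 levels over the 8 libraries were most like each member were also found, and 3 were taken for each. BGN was most like DNMT3A, ZDHHC1 and USP48 (r from 0.99 to 0.99), ASPN most like JADE3, DSTN and MEIS3 (r 0.99, 0.99 and 0.98), and PRELP most like PLSCR4, FAM221B and YPEL4 (r 0.99, 0.98 and 0.98). LUM was most like KIF3B, ZNF2 and ZBTB1 (r 0.99, 0.99 and 0.98), and OMD most like LRRC17, another leucine-rich repeat gene, AMPD2 and LENEP (r 0.97, 0.97 and 0.94). For DCN the nearest was ZNF175 (r 0.97), for OGN ZNF565 (r 0.99), for PODN TCP11L1 (r 0.98) and for ECM2 C2H1orf50 (r 0.98), while FMOD was nearest to LOC100060985 (r 0.996). With 8 libraries and 14907 genes, high values of r are easily found.

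Of 8 further genes of the same family or repeat type, 5 were tested, and 3 were called higher and none lower. Over all tested genes the shares were 6.83% and 7.31%. PODNL1, the close relative of PODN, held 314, 208, 897 and 1416 normalized counts untreated in horses D, J, L and W, and 1987, 1141, 2712 and 3479 treated. Its log2 fold change was 1.9996 (standard error 0.25, adjusted p = 0.00537 from limma), and it was not called without a term for the horse. EPYC (epiphycan, a cartilage member) rose from a mean of 30.5 to 107 and CHAD (chondroadherin) from 29.0 to 65.1 normalized counts, with log2 fold changes of 1.86 and 1.21. OPTC (opticin) and TSKU (tsukushi) were not called, at 0.97 and -0.51 on the log2 scale. Without horse J, EPYC and PODNL1 were called and CHAD, at 0.91, was not, while 7.67% of all tested genes were called higher. Leaving out D or W left 1 of the 5 called higher, against 3.94% or 3.67% of all tested genes.

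Enzymes that build the chains were counted next. Of 18 tested genes for the linker, the chondroitin backbone and dermatan sulphate, 4 were called higher and 1 lower. The shares over all tested genes were 6.83% and 7.31%, and the median log2 fold change of the 18 was 0.34. XYLT1, 1 of the 2 enzymes that start chondroitin and dermatan sulphate chains by adding xylose to the core protein, rose from 2177 to 6713 normalized counts. The chain polymerases CHSY1 and CHSY3 rose by 1.79 and 2.81 on the log2 scale, and the 6-O-sulphotransferase CHST3 by 1.80. CHST15, which adds a second sulphate, fell by 1.15, but was not called without horse J, without horse W or without a term for the horse. DSE, the epimerase that makes dermatan from chondroitin sulphate, was at 0.86 on the log2 scale, under the fold threshold (adjusted p = 0.00956 from limma). Without horse J, the same 4 enzymes were called higher and none lower, against 7.67% and 8.71% of all tested genes.

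Of 8 tested genes for keratan sulphate and tyrosine sulphation, the modifications of lumican and fibromodulin, none was called higher and 1 lower. Over all tested genes 6.83% and 7.31% were, so with 8 genes these counts are near those shares. CHST2, a keratan sulphate sulphotransferase, fell from 1716 to 326 normalized counts (log2 fold change -2.50, adjusted p = 0.00367 from limma). TPST1, which sulphates tyrosines, was at -0.88 on the log2 scale (adjusted p = 0.0221 from limma), under the fold threshold. Without horse J, 1 gene was called higher, CHST1, and 3 lower, CHST2, B4GALT1 and TPST1, against 7.67% and 8.71% of all tested genes.

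Of 12 tested proteases and protease enhancers, 1 was called higher and 2 lower, against 6.83% and 7.31% of all tested genes. ADAMTS5, an aggrecan and proteoglycan cleaving enzyme, fell from 7374 to 1077 normalized counts (log2 fold change -2.83, adjusted p = 0.00605 from limma), and MMP9 had a log2 fold change of -2.15. MMP1 rose, from 0 to 12.1 normalized counts untreated to 4.76 to 87.4 treated, so few reads that its fold depends on the pseudocount. MMP13 had a row but did not pass the filter and was not tested. It was lower in all 4 horses, from 3.37 to 261 normalized counts untreated to 0 to 2.14 treated. BMP1, which removes the propeptide of biglycan and of procollagen, was at 0.99 on the log2 scale (adjusted p = 0.0176 from limma), just under the fold threshold. Without horse J, 1 gene was called higher and 3 lower, MMP14 being the third, against 7.67% and 8.71% of all tested genes. Leaving out D or W gave 0 higher and 1 lower. The shares over all genes were 3.94% and 3.92% without D and 3.67% and 3.58% without W. MMP1 was not called without a term for the horse (adjusted p = 0.112 from limma).

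Of the collagens that these proteoglycans bind, 5 of 8 tested were called higher and none lower. The called collagens, against 6.83% higher and 7.31% lower of all tested genes, were COL1A1, COL1A2, COL5A1, COL5A2 and COL12A1. Their log2 fold changes ran from 1.67 to 3.003, and all but COL1A2 were called without horse J, where 7.67% of all tested genes were called higher. Leaving out D or W left 3 called higher, against 3.94% or 3.67% of all tested genes. COL1A2 was not called without a term for the horse (adjusted p = 0.0919 from limma). The 3 type VI genes, whose beaded filaments biglycan and decorin bind, were not called, at -0.32, -0.46 and 0.22 on the log2 scale. Of 17 tested ligands and receptors known to bind members, 3 were called higher, TGFB2, KDR and ITGA2, and 1 lower, P2RX7. The shares over all tested genes were 6.83% and 7.31%, and the 1 lower call is near its share. TGFB1 and TGFB3, the other TGF-β isoforms, were not called, at 0.72 and -0.52. Without horse J, 5 of the 17 were called higher and 2 lower, against 7.67% and 8.71% of all tested genes. Leaving out D gave 2 higher and 0 lower (3.94% and 3.92% of all genes). Leaving out W gave 3 and 0 (3.67% and 3.58%), so that P2RX7 was not called in either fit.

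**Figure D5:**
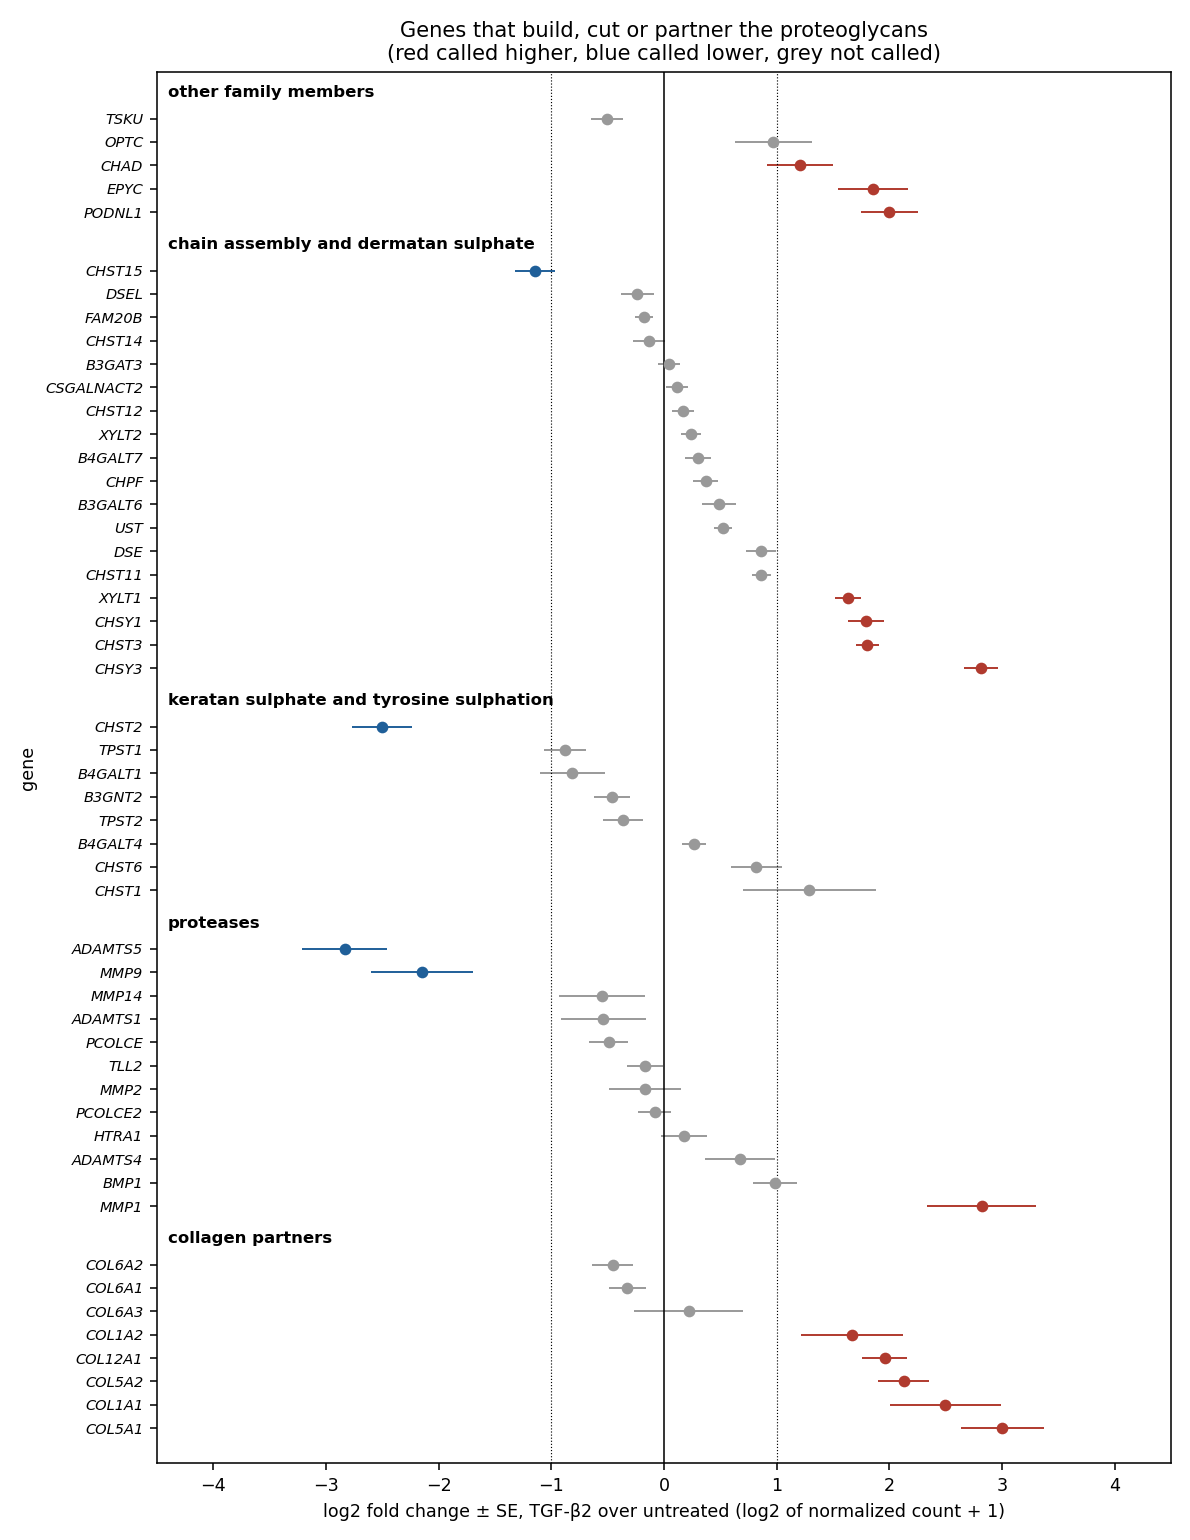
Log2 fold change with its standard error for the tested genes of 5 lists, red called higher, blue called lower and grey not called, with dotted lines at the fold threshold. The called enzymes of chain assembly lie at 1.63 to 2.81 except CHST15 at -1.15, and CHST2 is the only gene called among those for keratan and tyrosine sulphation.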

How the data were processed

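Poly(A) RNA from 8 cultures was sequenced with paired ends. Per the paper and the labels, the authors trimmed reads (Trimmomatic 0.36), aligned them to EquCab 3.0 (STAR 2.5.2b), counted unique hits per gene (featureCounts, Subread 1.5.2) and normalized them with DESeq2. They deposited normalized counts, a signal of gene counts divided by 1 size factor per library. The 1 unnamed row, 0.0281% to 0.0531% of the reads, was left out. Whole reads were recovered from each library's step, and 100% of the values came out whole (tolerance 0.01).

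Of the 8 libraries, 4 or more had to reach 10 normalized counts for a gene to enter the test, made with limma 3.58.1 (R 4.3.3; eBayes with trend) on log2(normalized count + 1), which understates the change of low genes, with the horse as a block. The block follows the design, which pairs the cultures of 1 horse. Both libraries of a horse shifted the same way around the group means (mean correlation across genes 0.480, range 0.386 to 0.609). For different horses the mean was -0.159, a value that centring each group on its own mean largely fixes, so it is no separate support. Alternatives were no block, pseudocounts of 0.5 and 5, a filter at 50 and none, scaling by TMM, upper quartile or total reads, no trend, no fold threshold, DESeq2 1.42.0 and edgeR 4.0.16 (quasi-likelihood) with the horse on recovered reads, and each horse left out. The fits were tested on simulated data in which a changed gene had the same true change in every horse. The simulation therefore does not test the fits where the horses differ in their change, as they do for several members.

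The members and lists were chosen with earlier results of these data known. Named are the members, the called or otherwise described genes of the lists (other family genes, chain assembly, keratan and tyrosine sulphation, proteases, collagens, signalling partners, and markers of mesenchymal, haematopoietic, endothelial, osteoblast and chondrocyte, and tenocyte cells), and the 3 genes most like each member. The list counts and the spread without horse J were added after the values were seen. Strand of counting is not given in the sources used here. List genes with no row were not analysed here.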

Additional observations from a re-analysis of the deposited data

Results flagged for a closer look

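In 4 of 30 sets of 4 values (untreated levels, treated levels and changes of the 10 genes), 1 horse lay far from the other 3 by Dixon's test on the log2 scale, and all 4 concerned horse J. Chance gives about 1 in 20 for independent sets, but these sets share 8 libraries and the changes are computed from the levels. The test was not run over all tested genes, so no background share stands beside the 4. The untreated library of horse J stood apart over all tested genes too. In untreated cells of horse J, DCN stood at 14084 normalized counts, where the next lowest held 54553, FMOD at 5317, where the next lowest held 27374, and PODN at 21.5, where the next lowest held 645. The log2 change of PRELP in horse J was -0.74, and the next was -2.87. Each of these genes is given with and without horse J in the text. The cause was not tested.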

How the results depend on the processing

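With 3 members called higher and 2 lower, the number called higher was 1 with no replicate block, since ASPN and PODN are called only in the paired fit, and the number called lower was 1 with DESeq2. With each horse left out, 2 to 3 members were called higher and 0 to 4 lower, 0 without D or W, 1 without L and 4 without J. These fits have 3 horses, so fewer samples. The other alternatives gave 3 and 2. Of all tested genes 2108 were called, 1018 higher and 1090 lower. Without a fold threshold these were 4610.0, 2334.0 higher and 2276.0 lower. With each horse left out they were 1080 to 2442, 547 to 1143 higher and 533 to 1299 lower. Total scaling moved the median gene by -0.30 on the log2 scale and gave 697 higher and 1832 lower, 27.6% higher of those called against 48.3%. ECM2 reversed there, to -0.0058, and all other members kept their direction under every scaling. With each horse left out the log2 fold change of FMOD ran from -0.23 to 0.94, of OGN from -0.11 to 1.36 and of ECM2 from -0.0161 to 0.50, each negative only without J. DCN ran from -1.95 to -0.48 and OMD from -2.45 to -0.09, in both nearest to 0 without L. The cause of these moves was not tested. The lowest library of any member held 32 reads (PODN, untreated horse J), and counting error was not compared with the spread between horses.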
